A study of Mus musculus with 12 samples.

Results

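The endothelial genes of the liver were followed here as 35 genes out of 24910 in the expression table. They comprised 16 genes that mark liver sinusoidal endothelial cells or are secreted by them, and 19 genes that blood vessel endothelium uses in general. The genes were listed by name but chosen by their RNA levels too, since earlier FPKM values of these same 6 livers were in view, and Stab2, Clec4g, Lyve1 and Oit3 were set as the defining markers of the sinusoidal cells. Livers came from wild-type male C57BL/6J mice, with 2 mice in each of 3 groups, and the same livers gave RNA for RNA-seq and chromatin for FAIRE-seq. Sham and VSG mice were placed on a diet with 60 kcal% fat at 8 weeks of age and stayed on it for 14 weeks before and 14 weeks after surgery, apart from liquid diet for the first 4 days after the operation. VSG (vertical sleeve gastrectomy) mice lost about 80% of the stomach, whereas Sham mice had the stomach exposed and pressed with forceps along the same line. Control mice ate chow for 28 weeks and had no surgery, so diet and operation cannot be told apart between Sham and Control mice.

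Liver sinusoids are lined by a thin endothelium perforated with pores and without a full basement membrane, which lets plasma reach the hepatocytes. These cells clear waste from the blood through scavenger and Fc receptors. They also send Wnt, R-spondin and BMP ligands to hepatocytes, where Wnt signalling keeps up the gene program around the central vein and BMP signalling switches on the iron hormone hepcidin. Endothelium of all vessels shares receptors for VEGF and angiopoietin, junction proteins such as VE-cadherin, and transcription factors of the ETS and SOX families. Whole liver was measured, so fewer endothelial cells and less endothelial RNA per cell cannot be told apart in any value below.

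Expression was read as FPKM (fragments divided by transcript length and by the mapped fragments of the library), a scale on which levels of different genes can be compared. Transcripts of a gene were summed, which joined 55 transcripts into the 35 genes. The number of reads behind the FPKM values is not known. From the lowest values, the depth relative to the first Control mouse was 0.835 in the second, while the Sham mice had 0.674 and 1.17 and the VSG mice 1.56 and 0.920. Of the 35 genes, 8 were listed at exactly 0 in at least 1 mouse (Stab1, Stab2, Oit3, Kdr, Eng, Nrp1, Pecam1 and Erg). Genes that hepatocytes use, such as Apob and Hnf4a, were also listed at 0 in the first Sham mouse, so a listed 0 may be a failed estimate, and no mean or fold is given for those 8 genes where a group is at 0. Of the 4 defining markers, Clec4g and Lyve1 were above 0 in all 6 livers, Stab2 was listed at 0 in 2 livers and Oit3 in 3.

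The mean of all 35 genes was lower in Sham than in Control mice. Across the 17460 genes with any FPKM above 0, 42.5% had a lower mean in Sham mice. For 29 of the 35 genes, 12 sinusoidal and 17 general, both Sham mice lay below both Control mice, against 17.9% of all genes, and none had both Sham mice above, an order that 23.3% of all genes had. With a difference of at least 2-fold added, and a group listed at 0 counted as lower, there were 26, against 8.56% of all genes, with none in the opposite direction, against 11.9%. Among the 27 members above 0 in every mouse there were 21, against 7.1% of all genes above 0 in every mouse, and for Oit3, Eng, Nrp1, Erg and Pecam1, with a Sham mouse at 0, only the order is meant. Between VSG and Sham mice the order turned the other way for most members, but among the 4 defining markers only for Clec4g. The mean was higher in VSG mice for 31 of the 35 genes, against 56.8% of all genes, and both VSG mice lay above both Sham mice for 23 of them, against 18.0% of all genes, and below both for none, against 9.7%. At 2-fold or more there were 22 higher, against 8.66% of all genes, and 0 lower, against 4.68%. Among the 27 members above 0 in every mouse there were 20 higher, against 6.61% of such genes, and the others were Nrp1 and Pecam1. After scaling by the median ratio, the numbers with a lower Sham and a higher VSG mean were 35 and 30. Both comparisons use the same Sham mice, so they are not independent. For 21 genes, 9 sinusoidal and 12 general, both Sham mice lay below all 4 other mice, against 7.73% of all genes. Because the genes were picked with these RNA values in view, the counts describe the genes and carry no test.

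**Figure D1:**
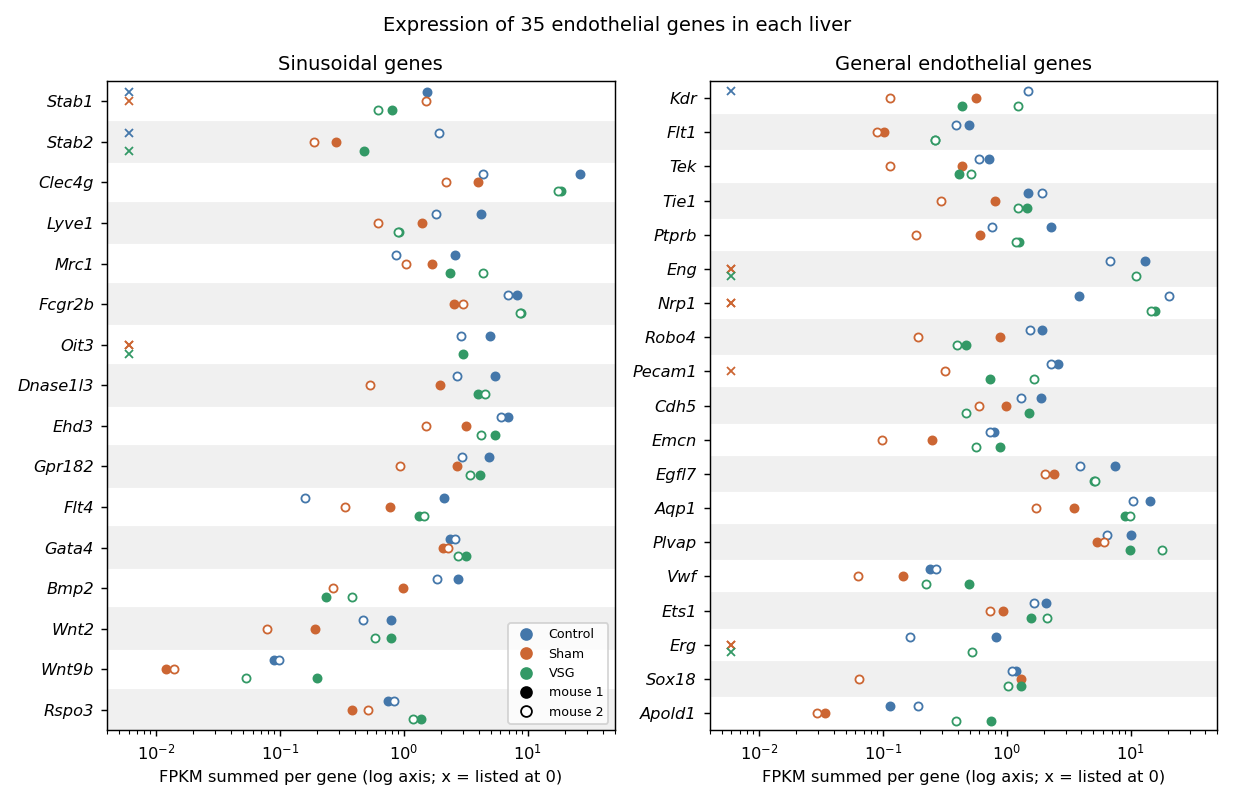
FPKM summed per gene (log axis) of the 16 sinusoidal genes on the left and the 19 general endothelial genes on the right, with 1 point per mouse, filled for mouse 1 and open for mouse 2 of each group, and a cross for a gene listed at 0. The Sham points lie to the left of both other groups for 21 genes, and the VSG points of Lyve1, Bmp2 and Robo4 lie to the left of their Control points.

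Among the scavenger and uptake receptors of the sinusoid, Clec4g (LSECtin), a C-type lectin on the surface of sinusoidal cells, had the highest mean level, although Fcgr2b was above it in the second Control and the second Sham mouse. Its FPKM was 26.1 and 4.35 in Control, 3.93 and 2.19 in Sham, and 18.5 and 17.4 in VSG mice. Both Sham mice lay below the other 4, although the second Control mouse was only slightly above them and far from the first. Fcgr2b, the inhibitory Fc receptor that takes up small immune complexes, was measured at 8.12 and 6.89 in Control, 2.53 and 2.98 in Sham, and 8.73 and 8.58 in VSG mice. Other liver cells use Fcgr2b as well. Its Sham mean was 2.72-fold below Control and its VSG mean 3.14-fold above Sham, with replicates close together in each group. Lyve1, a hyaluronan receptor of sinusoidal and lymphatic endothelium, followed a different order. It stood at 4.15 and 1.81 FPKM in Control, 1.39 and 0.614 in Sham, and 0.913 and 0.893 in VSG mice, so that the VSG mice lay within the Sham range and below Control.

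The stabilins are the large scavenger receptors by which sinusoidal cells clear hyaluronan and modified lipoproteins. Stab2 was listed at 0 and 1.91 FPKM in Control, 0.285 and 0.187 in Sham, and 0.476 and 0 in VSG mice. Stab1 was listed at 1.52 and 0, 0 and 1.497, and 0.806 and 0.619 FPKM in the same order of groups. In both genes the groups overlapped, and their values put the groups in no order. Oit3, a secreted protein made by sinusoidal endothelium in the liver, was listed at 4.97 and 2.86 FPKM in Control, at 0 in both Sham mice, and at 3.02 and 0 in VSG mice. Mrc1, the mannose receptor, which macrophages use as well, had overlapping Control and Sham values, with 2.58 and 0.861 against 1.68 and 1.03 FPKM, and stood at 2.33 and 4.31 in VSG mice.

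The other cell-surface and intracellular sinusoidal genes had the Sham mice lowest, with overlap in 1 of them. Dnase1l3, a secreted nuclease that digests DNA of dying cells, was at 5.39 and 2.67 FPKM in Control, 1.96 and 0.531 in Sham, and 3.98 and 4.51 in VSG mice. Ehd3, an endosomal recycling protein, was at 6.97 and 6.07, 3.19 and 1.51, and 5.47 and 4.17 FPKM. Gpr182, a scavenging chemokine receptor, was at 4.83 and 2.95, 2.66 and 0.930, and 4.14 and 3.39 FPKM. Both Sham mice were below the other 4 in these 3 genes. Flt4 (VEGFR3) varied between the Control mice from 2.09 to 0.159 FPKM, a range that took in both Sham values. Gata4, the transcription factor that sets sinusoidal identity and is also present in stellate cells, differed least of the non-overlapping sinusoidal genes, with 2.35 and 2.59 FPKM in Control, 2.07 and 2.28 in Sham, and 3.19 and 2.73 in VSG mice.

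The ligands that sinusoidal cells send to hepatocytes split into a Wnt group and a BMP gene. Wnt2 was at 0.793 and 0.465 FPKM in Control, 0.191 and 0.0788 in Sham, and 0.781 and 0.581 in VSG mice. Wnt9b, the other Wnt ligand of central vein endothelium, was at 0.0898 and 0.0981 FPKM in Control, 0.0121 and 0.0140 in Sham, and 0.199 and 0.0533 in VSG mice, low levels whose read numbers are not known. Rspo3, which amplifies Wnt signalling, was at 0.740 and 0.830, 0.381 and 0.508, and 1.37 and 1.19 FPKM. For these 3 genes the Sham mice were the lowest, and for Rspo3 the VSG mice also lay above Control. Bmp2, the sinusoidal ligand that drives hepcidin, was at 2.74 and 1.84 FPKM in Control, 0.977 and 0.269 in Sham, and 0.233 and 0.379 in VSG mice. The VSG mice stayed below Control, with a mean 7.47-fold lower, and overlapped the Sham mice.

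Genes that respond to these ligands in hepatocytes were read from lists of pathway genes. None of these genes reached an FDR of 10% in any of the 3 comparisons (limma). At an unadjusted p under 0.05, there were 0 to 3 genes of a list in 1 direction. The count of 3 came from VSG against Control mice. There, 3 of 13 tested Wnt list genes were higher (7.02% of all genes) and 0 lower (2.53%). Of 11 tested BMP list genes, 3 were lower and 0 higher. Among 15 genes of the Wnt and R-spondin program around the central vein, both Sham mice lay below both Control mice in 3 (17.9% of all genes) and above them in 5 (23.3%). Both VSG mice lay above both Sham mice in 4 (18.0% of all genes) and below them in 1 (9.7%), so the list was near the shares of all genes. Glul, the glutamine synthetase of the innermost hepatocytes, was at 338 and 345 FPKM in Control, 395 and 456 in Sham, and 533 and 408 in VSG mice, which is not the order of Wnt2. Nkd1, a feedback inhibitor of Wnt signalling, had the order of Wnt2, with 0.472 and 0.326, 0.268 and 0.127, and 0.623 and 0.792 FPKM. Cyp1a2, at 213 and 168, 101 and 13.1, and 103 and 270, had this order too. So did Slc1a2, at 31.1 and 44.3, 19.5 and 29.7, and 36.5 and 39.0. Lgr5 had the opposite order, at 0.788 and 0.617, 1.32 and 1.37, and 0.540 and 0.937 FPKM. For Slc13a3, Lect2 and Sp5, both Sham and both VSG mice lay above both Control mice, and the Sham means were at least 2-fold higher. Slc13a3 was at 3.45 and 3.67, 9.05 and 31.6, and 25.3 and 14.2 FPKM. Lect2 was at 47.6 and 41.85, 218 and 66.2, and 272 and 180.5. Sp5 was at 0.428 and 0.358, 1.515 and 0.867, and 2.05 and 1.19. The list as a whole did not move in 1 direction between Sham and Control or between VSG and Sham mice. Against Control mice, both VSG mice lay above in 6 of the 15 (29.9% of all genes) and below in 0 (12.8%).

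Among 13 BMP pathway genes, both Sham mice lay below both Control mice in 5 (17.9% of all genes) and above them in 1 (23.3%). Both VSG mice lay below both Sham mice in 4 (9.7% of all genes) and above them in 1 (18.0%). Bmp6, the other sinusoidal BMP ligand for hepcidin, was listed at 0 in all 6 livers, which may be a failed estimate. Hamp, which encodes hepcidin, was at 2052 and 2407 FPKM in Control, 1253 and 718 in Sham, and 99.7 and 4.74 in VSG mice. The targets Id3 and Atoh8 had the same descending order as Hamp. Id3 was at 42.5 and 44.6, 38.4 and 23.1, and 18.9 and 4.82 FPKM, and Atoh8 at 6.80 and 6.46, 1.44 and 3.41, and 0.858 and 1.37 FPKM. In all 3 genes the groups were apart, with VSG mice lowest. On the log2(FPKM + 1) scale, the difference of Hamp between VSG and Control mice was -6.53 ± 1.35 (SE, limma), with an adjusted p of 0.333. Id1 and Smad6, further BMP targets, did not show this order, nor did Id2, Smad7, Bmpr1a and Tfr2 of the list. Hjv was higher in Sham than in Control mice, at 51.0 and 50.0 against 30.6 and 23.8 FPKM. The part of Bmp2 in the values of these genes was not tested.

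**Figure D2:**
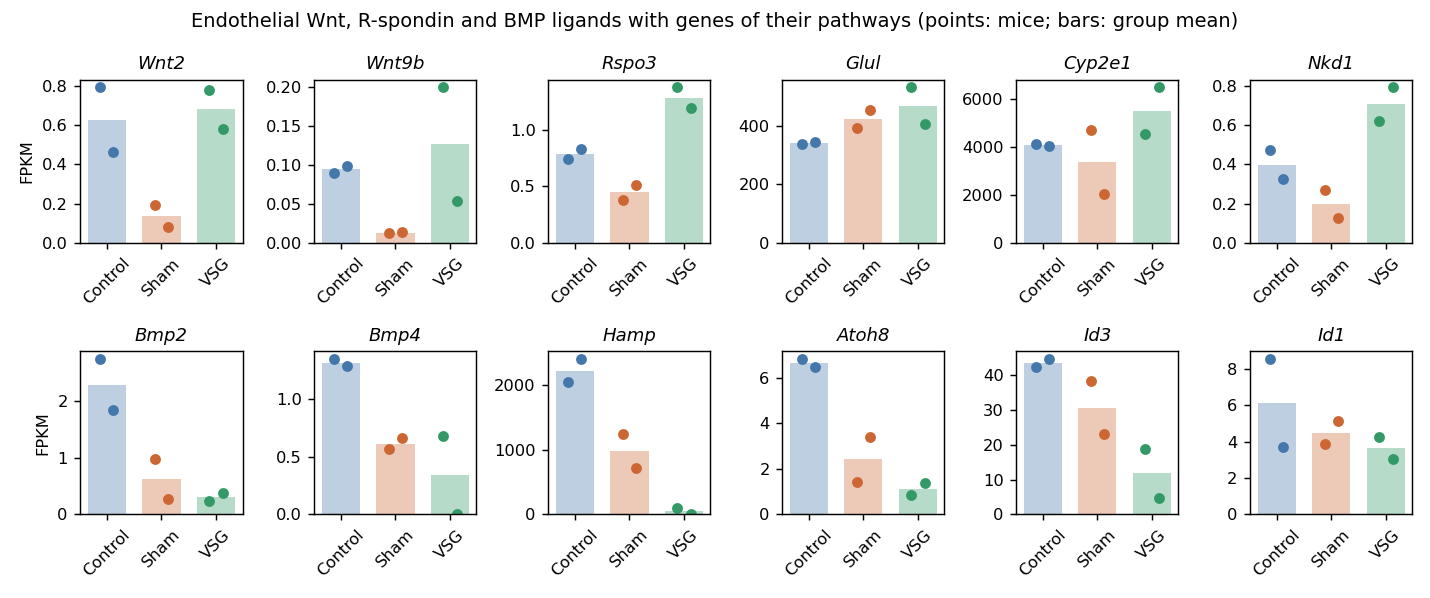
FPKM in each mouse (points) and group means (bars, axes from 0) of Wnt2, Wnt9b and Rspo3 with Glul, Cyp2e1 and Nkd1 in the upper row, and of the BMP ligands Bmp2 and Bmp4 with Hamp, Atoh8, Id3 and Id1 in the lower row. The Wnt ligands are lowest in Sham mice, whereas Hamp, Atoh8 and Id3 descend from Control through Sham to VSG mice.

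Receptors shared by all endothelium were next read gene by gene. Flt1 (VEGFR1) was at 0.493 and 0.390 FPKM in Control, 0.103 and 0.0892 in Sham, and 0.264 and 0.265 in VSG mice. Tie1, the orphan partner of the angiopoietin receptor, was at 1.49 and 1.92, 0.809 and 0.295, and 1.45 and 1.23 FPKM. Tek (Tie2), the angiopoietin receptor itself, was at 0.714 and 0.598 FPKM in Control and 0.432 and 0.114 in Sham mice, and its VSG values of 0.408 and 0.511 overlapped those of Sham. Ptprb (VE-PTP), the phosphatase that restrains Tie2, was at 2.26 and 0.763, 0.604 and 0.185, and 1.26 and 1.18 FPKM. Thus both Sham mice were below Control in these 4 genes, and both VSG mice were above Sham in 3.

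Kdr (VEGFR2), the main VEGF receptor, was listed at 0 and 1.49 FPKM in Control, 0.567 and 0.115 in Sham, and 0.434 and 1.23 in VSG mice, with overlapping groups. The co-receptors Eng (endoglin) and Nrp1 (neuropilin-1) were listed at 0 in both Sham mice. Eng stood at 13.0 and 6.86 FPKM in Control and at 0 and 10.98 in VSG mice, and Nrp1 at 3.83 and 20.5 in Control and 15.5 and 14.6 in VSG mice. For Eng, the VSG mice thus lay as far apart as Control and Sham mice did. Robo4, a receptor that stabilises vessels, was at 1.92 and 1.53 FPKM in Control, 0.875 and 0.191 in Sham, and 0.470 and 0.395 in VSG mice. Like Lyve1 and Bmp2, it was lower in Sham than Control and no higher in VSG mice.

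Junction and surface proteins showed the Sham mice lowest with some overlap in VSG. Pecam1 (CD31), the adhesion molecule of endothelial contacts, was listed at 2.57 and 2.27 FPKM in Control, 0 and 0.320 in Sham, and 0.737 and 1.67 in VSG mice. Cdh5 (VE-cadherin) was at 1.89 and 1.31, 0.993 and 0.597, and 1.52 and 0.471 FPKM, so its VSG mice spanned the Sham values. Emcn (endomucin), a sialomucin of capillaries and veins, was at 0.781 and 0.730, 0.249 and 0.0989, and 0.873 and 0.566 FPKM. Aqp1, the water channel of endothelium and bile duct cells, was at 14.3 and 10.3 FPKM in Control, 3.49 and 1.71 in Sham, and 8.94 and 9.94 in VSG mice, and its Sham mean was 4.73-fold below Control. Plvap, the protein of the diaphragms over endothelial pores, differed less between Sham and Control, at 5.33 and 6.13 against 10.1 and 6.37 FPKM, and reached 9.83 and 18.0 in VSG mice. Vwf, the clotting factor that large-vessel endothelium stores, stayed below 0.5 FPKM in all livers, with the Sham mice lowest at 0.145 and 0.0628.

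Among secreted and transcriptional regulators, Egfl7, a matrix protein that guides vessel tubes, was at 7.48 and 3.88 FPKM in Control, 2.39 and 2.01 in Sham, and 5.08 and 5.11 in VSG mice. On the transcript with the highest mean alone, the mean of Egfl7 was not higher in VSG than in Sham mice. Ets1, an ETS factor present in lymphocytes too, was at 2.06 and 1.66, 0.931 and 0.727, and 1.57 and 2.11 FPKM. Erg, the ETS factor that maintains endothelial identity, was listed at 0.812 and 0.166 FPKM in Control, at 0 in both Sham mice, and at 0 and 0.527 in VSG mice. Sox18 ranged from 1.29 to 0.0639 FPKM between the Sham mice and overlapped both other groups. Apold1, an immediate early gene of endothelium, was at 0.114 and 0.192, 0.0339 and 0.0293, and 0.741 and 0.386 FPKM, and was the only member whose VSG mice lay above Control by at least 2-fold.

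Sinusoidal and general endothelial genes were next compared with each other. Over the 13 sinusoidal and 14 general genes above 0 in every mouse, the median ratio of the Sham to the Control mean was 0.360 and 0.356, against 1.07 over all such genes. That of the VSG to the Sham mean was 2.49 and 2.43, against 1.07. Summed over the list, sinusoidal FPKM was 73.4 and 36.4 in Control, 22.0 and 15.0 in Sham, and 55.5 and 50.2 in VSG mice. The general sum was 65.2 and 62.3, 18.2 and 12.7, and 50.9 and 70.5. The sinusoidal sum divided by the general sum was 1.13 and 0.583 in Control, 1.21 and 1.17 in Sham, and 1.09 and 0.712 in VSG mice. Both Sham mice lay above the other 4, but the spread of this ratio within Control and within VSG mice was larger than the distance of either group from Sham mice. Restricted to the 27 genes above 0 in every mouse, the ratio was 1.49 and 1.02, 1.23 and 1.08, and 1.496 and 1.197, and the groups overlapped. With 2 mice in each group, an exact permutation test of this ratio cannot give a two-sided p under 0.333.

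In a limma fit of log2(FPKM + 1) over the 9869 genes that reached 1 FPKM or more in 2 mice or more, 26 of the 35 genes were tested, 13 from each list. None passed an FDR of 10% in any comparison, where the fit called 0.193% of all genes lower and 0.0912% higher in Sham than Control, 0.0304% higher and 0.0203% lower in VSG than Sham, and 0.182% lower and 0.101% higher in VSG than Control. At an unadjusted p under 0.05 there were 13 genes lower in Sham than Control (4.34% of all genes) and none higher (6.57%). In VSG against Sham 9 were higher (3.25%) and none lower (1.6%). In VSG against Control 2 were lower (2.53%) and none higher (7.02%). Those 2, Bmp2 and Robo4, are also among the 13 and reached 1 FPKM only in Control mice. Rspo3, among the 9, reached it only in VSG mice. Tie1 and Ets1, among the 13, reached it in Control and VSG mice but in no Sham mouse. All of these genes thus passed the filter through the groups where they were high. The 13 also include Oit3, Eng, Nrp1 and Pecam1, and the 9 include Nrp1 and Pecam1. Each of these had a Sham mouse listed at 0, which may be a failed estimate, and reached 1 FPKM in no Sham mouse. The medians over the tested genes given below include all the genes named here. The difference of Sham from Control mice was -1.91 ± 0.33 (SE) for Aqp1 on this scale, -1.18 ± 0.21 for Fcgr2b and -1.21 ± 0.33 for Ehd3. That of VSG from Sham mice was 1.58 ± 0.33, 1.37 ± 0.21 and 0.84 ± 0.33. Over the tested genes the median change from Control to Sham was -0.96 for sinusoidal and -0.82 for general genes, against 0.04 over all genes. From Sham to VSG it was 0.84 and 0.69, against 0.08. Over all 16 and 19 genes without the filter, the medians were -0.68 and -0.58, then 0.64 and 0.59, since a low gene cannot move far on this scale.

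**Figure D3:**
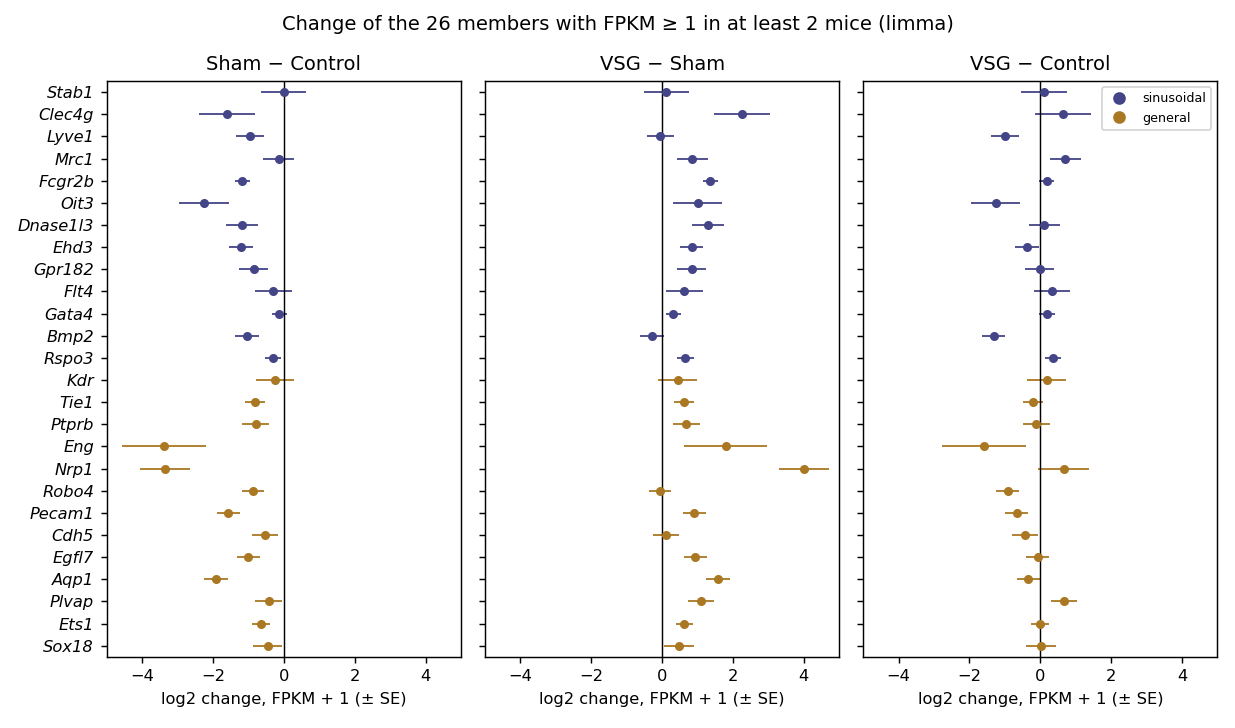
Differences on the log2(FPKM + 1) scale (points) with their standard errors (bars) from limma for the 26 members that passed the filter, in the comparisons of Sham with Control, VSG with Sham and VSG with Control. All 26 points lie left of 0 in Sham against Control and 23 lie right of 0 in VSG against Sham. In VSG against Control the points lie on both sides of 0. Points of Stab1, Oit3, Kdr, Eng, Nrp1 and Pecam1 rest partly on mice listed at 0.

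Compared directly with Control mice, VSG mice had lower means in 20 and higher means in 15 of the 35 genes. Both VSG mice lay below both Control mice for 9 genes, against 12.8% of all genes, and above them for 4, against 29.9%. At 2-fold or more there were 4 lower genes (Lyve1, Bmp2, Robo4 and Pecam1), against 5.59%, and 1 higher gene (Apold1), against 13.2%. The limma median was 0.11 for sinusoidal and -0.11 for general genes, while the median of all genes was 0.13. After scaling by the median ratio, which brought the median of all genes to -0.01, the lists stood at 0.03 and -0.22. Without the second Control mouse the medians were -0.37 and -0.48, so the direction of the sinusoidal median rested on that mouse. The difference of VSG from Control mice was -1.32 ± 0.33 (SE) for Bmp2, -1.001 ± 0.394 for Lyve1 and -0.92 ± 0.31 for Robo4.

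Markers of other liver cells varied alongside the endothelial genes. The summed FPKM of 12 stellate cell markers was 106 and 91.2 in Control, 27.8 and 41.6 in Sham, and 88.8 and 132 in VSG mice, the order of the endothelial sums. For 8 of the 12 both Sham mice lay below both Control mice (17.9% of all genes), and for 8 both VSG mice lay above both Sham mice (18.0%). Col1a1, a fibrillar collagen chain, was on the opposite side, with 0.628 and 0.510 FPKM in Control and 0.638 and 2.92 in Sham mice. Ecm1, a matrix protein of stellate cells, was at 42.3 and 26.5, 2.97 and 4.48, and 18.4 and 34.5 FPKM. The stellate genes that define the cell, Lrat, Dcn and Reln, were above 0 in all livers. Kupffer cell markers summed to 20.03 and 14.97 FPKM in Control, 42.3 and 42.2 in Sham, and 41.0 and 162 in VSG mice. Of these 9 markers, both Sham mice lay above both Control mice in 5 (23.3% of all genes) and below in 0 (17.9%). Csf1r and Cd163 had lower means in Sham mice, and Marco alone was at 20.6 in the first Sham mouse. Neutrophil markers summed to 12.4 and 4.91, 40.5 and 44.6, and 21.1 and 16.3, with Ly6g at 0 throughout. The 6 hepatocyte markers summed to between 9068 and 17190 FPKM with overlapping groups, a sum that was mostly Apoa1. Tat (tyrosine aminotransferase), an amino acid enzyme of hepatocytes, fell from 1376 and 1477 FPKM in Control to 210 and 188 in Sham mice (limma, adjusted p = 0.0445) and stood at 233 and 283 in VSG mice (adjusted p = 0.0679 against Control). It was the only listed gene called in any comparison. The part of these cell types in the endothelial values was not tested.

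**Figure D4:**
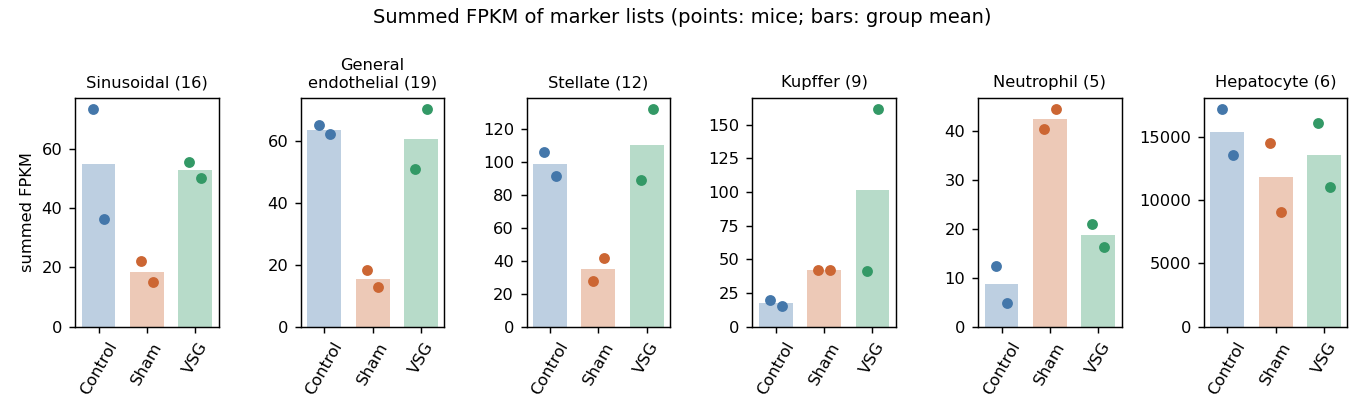
Summed FPKM of the sinusoidal and general endothelial genes and of stellate, Kupffer, neutrophil and hepatocyte markers, with points for mice, bars for group means, axes from 0 and the number of genes in brackets. Both endothelial sums and the stellate sum are lowest in Sham mice, at 22.0 or below, 18.2 or below and 41.6 or below, whereas the neutrophil sum is highest there. The sinusoidal sum includes Oit3 and the general sum Eng, Nrp1 and Erg, all listed at 0 in both Sham mice.

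Further endothelial gene lists were counted in the same way. Over all genes, both Sham mice lay below both Control mice in 17.9% and above in 23.3%, and both VSG mice above both Sham mice in 18.0%, and some counts below are near those shares. Of 12 Notch genes, both Sham mice lay below both Control mice in 6 and above in 2, and both VSG mice lay above both Sham mice in 4. Notch4, the endothelial Notch receptor, was at 0.463 and 0.317, 0.0563 and 0.0941, and 0.230 and 0.192 FPKM. Of 12 endothelial transcription factors, Sham lay below Control in 7 and above in 1, and VSG above Sham in 6. Gata2 was at 0.139 and 0.167 FPKM in Control, 0.0172 and 0.0198 in Sham, and 0.171 and 0.126 in VSG mice, whereas Hhex, which hepatocytes use as well, was higher in Sham at 26.3 and 36.2 than in Control at 18.8 and 17.5.

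Of 10 flow-responsive genes, Sham lay below Control in 2 and above in 2, which is at the shares of all genes just given, and VSG above Sham in 5. Thbd (thrombomodulin) was at 1.52 and 0.759, 0.208 and 0.154, and 0.933 and 0.763 FPKM. S1pr1, the gene with the highest level in this list, was on the opposite side between Sham and Control mice. Its mean was 1.76-fold higher in Sham than in Control mice, with the groups apart. The VSG mean of S1pr1 was 1.24-fold above Sham and 2.18-fold above Control, again with the groups apart. Of 10 leukocyte adhesion molecules, Sham lay below Control in 3 and above in 1, and VSG above Sham in 4, among them Jam2 at 1.69 and 1.22, 0.441 and 0.229, and 1.15 and 1.10 FPKM. Of 11 basement membrane genes the counts were 4, 1 and 4, with Col4a1 on the opposite side at 1.75 and 2.54 in Control and 3.18 and 14.3 in Sham mice. The 9 VEGF and angiopoietin ligands did not share this order, and Vegfa, the ligand that hepatocytes supply, overlapped in all groups, at 27.8 and 25.3, 16.3 and 26.2, and 17.8 and 28.6 FPKM. Of 6 markers of lymphatic and large-vessel endothelium, Gja4 (connexin 37) had the highest level, at 3.28 and 2.34, 0.739 and 0.346, and 1.36 and 1.68 FPKM.

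Accessible chromatin at these genes was a readout that the choice of members did not use. FAIRE-seq enriches DNA that is free of nucleosomes, and the deposited lists hold peaks found in both mice of a group, so they have no value per mouse and no test was made. A peak lay within 1000 bp of an annotated start site for 8 of the 35 genes in the Control list, 11 in the Sham list and 16 in the VSG list. Of the 15708 genes with an FPKM above 0 in any mouse and an annotated start, 67.1%, 67.0% and 68.8% had one, and of the 9317 that also passed the FPKM filter, 89.9%, 89.7% and 91.0%. Promoter peaks were thus recovered at fewer of the endothelial genes than of all genes in each list. No list had a promoter peak at 15 members (28.9% of genes above 0), among them Clec4g, Stab2, Lyve1, Pecam1 and Plvap. All 3 lists had one at 6 members (64.1%), namely Dnase1l3, Ehd3, Gpr182, Gata4, Nrp1 and Ets1.

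Promoter peaks were also counted for sinusoidal and general genes apart, with no test. For the 16 sinusoidal genes the Control, Sham and VSG lists had 5, 7 and 5, and for the 19 general genes 3, 4 and 11. With the same number of top-ranked peaks from each list they were 5, 5 and 5, and 3, 3 and 11. A peak in the VSG list alone was found at 7 members, all general (Kdr, Tie1, Eng, Robo4, Cdh5, Aqp1 and Sox18), against 1.55% of genes above 0. A peak in the Sham list alone was found at 3 members (Fcgr2b, Wnt9b and Apold1), against 1.02%, and in the Control list alone at Oit3, against 0.796%. The 7 peaks of the VSG list all spanned the start site, reaching from at most 310 bp upstream to at most 354 bp downstream. They were weak peaks, with an F-seq signal between 0.167 and 0.234 against a median of 0.298 in their list. The Sham list held no peak with a signal under 0.193, and 4 of the 7 (Tie1, Robo4, Aqp1 and Sox18) had a VSG signal below that value. The lowest signal of the Control list, 0.137, was below that of all 7. With the 50% of peaks with the highest signal in each list, members with a promoter peak numbered 3, 3 and 4, of which 1, 1 and 2 were sinusoidal and 2, 2 and 2 general.

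RNA of these 7 genes did not share 1 order between Sham and VSG mice. Both Sham mice lay below Control for 5 of the 7 (17.9% of all genes), and both VSG mice above Sham for 2, Tie1 and Aqp1 (18.0%). Among all 35 members, chosen with these RNA values in view, the numbers were 29 and 23. The 5 include Eng, listed at 0 in both Sham mice. Among the stellate markers, whose RNA had the endothelial order, the 3 lists had promoter peaks at 2, 2 and 3 of 12 genes, with 1 in the VSG list alone. Over whole gene bodies, the Control, Sham and VSG lists had 50, 89 and 74 peaks, in 18, 23 and 26 members, from lists of 42204, 52881 and 44539 peaks. The share of all genes with a peak in the gene body was not counted, so these numbers cannot be read as a trait of the members.

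**Figure D5:**
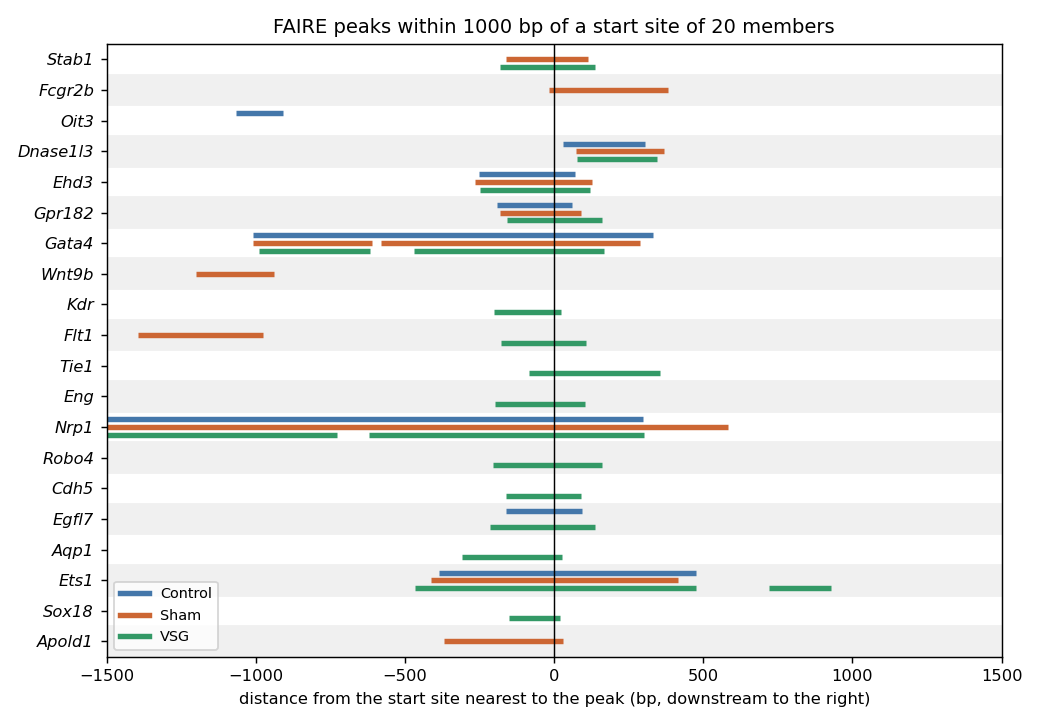
FAIRE peaks within 1000 bp of a start site for the 20 members that had any, drawn as bars against the distance in bp from the nearest start site (downstream to the right) for the Control, Sham and VSG peak lists. Kdr, Tie1, Eng, Robo4, Cdh5, Aqp1 and Sox18 have a bar for the VSG list only, each across the start site, and longer bars are cut at the edge.

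Promoter sequence was read from mm9 (NCBIM37) at the annotated start of each member, 250 bases before to 50 after. The letters AGGAAG, a core that ETS factors bind, were present on either strand in 21 of 35 member promoters (60.0%), in 9 of 16 sinusoidal and 12 of 19 general ones, against 34.2% of 20115 promoters in the table. GATAAG, a core bound by GATA factors, was present in 3 of 35 (8.57%), against 6.61%. The member promoters had a median GC content of 52.3% and a median of 7 CpG, compared with 59.7% and 19 for the genes that passed the filter. AGGAAG occurred in 5 of the 7 promoters with a peak in the VSG list alone. A match is a description of the letters and not a bound site. The 250 bases before the start are given below, 5′ to 3′ on the gene's strand, for 4 of the 5 genes with such a peak and the motif, and for Clec4g, the defining marker with the highest mean, which had no promoter peak. They were chosen after their values were seen, and capitals mark AGGAAG or its reverse complement.
Tie1 (chr4:118162667-118162916, minus strand): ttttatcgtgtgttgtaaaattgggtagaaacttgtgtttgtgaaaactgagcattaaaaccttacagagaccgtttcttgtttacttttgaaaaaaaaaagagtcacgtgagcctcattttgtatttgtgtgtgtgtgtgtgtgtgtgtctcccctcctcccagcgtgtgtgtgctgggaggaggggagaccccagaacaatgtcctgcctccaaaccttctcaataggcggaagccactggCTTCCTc
Robo4 (chr9:37209232-37209481, plus strand): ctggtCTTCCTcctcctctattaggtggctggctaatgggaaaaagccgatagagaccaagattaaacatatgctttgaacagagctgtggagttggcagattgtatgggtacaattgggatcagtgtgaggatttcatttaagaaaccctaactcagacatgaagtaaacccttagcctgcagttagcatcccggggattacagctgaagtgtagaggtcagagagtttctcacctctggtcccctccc
Eng (chr2:32501865-32502114, plus strand): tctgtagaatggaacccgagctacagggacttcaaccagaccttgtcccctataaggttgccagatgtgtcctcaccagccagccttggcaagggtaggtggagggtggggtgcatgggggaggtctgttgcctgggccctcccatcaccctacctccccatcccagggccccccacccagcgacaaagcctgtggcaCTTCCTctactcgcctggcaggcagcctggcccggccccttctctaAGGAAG
Aqp1 (chr6:55286176-55286425, plus strand): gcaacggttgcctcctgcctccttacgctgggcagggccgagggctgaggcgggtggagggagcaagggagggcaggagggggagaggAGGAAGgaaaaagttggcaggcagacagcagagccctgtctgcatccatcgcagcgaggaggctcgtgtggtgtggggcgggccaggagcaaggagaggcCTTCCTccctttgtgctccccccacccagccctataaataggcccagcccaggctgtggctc
Clec4g (chr8:3720652-3720901, minus strand): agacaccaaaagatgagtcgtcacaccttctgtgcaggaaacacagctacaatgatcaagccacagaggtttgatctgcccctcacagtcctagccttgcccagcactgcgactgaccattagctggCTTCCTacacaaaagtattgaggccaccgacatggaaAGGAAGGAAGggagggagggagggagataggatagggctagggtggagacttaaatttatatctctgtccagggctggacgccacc

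The lists of variable sites between Sham and VSG mice, given by position only, held 99 sites more accessible in Sham and 414 more accessible in VSG mice. None lay within 10 kb of a member's start site, against 0.182% and 2.22% of the 9317 genes with a start site that passed the filter. Within 100 kb, 1 site of the first list lay 95789 bp from Oit3 (chr10:59000315-59000709). From the second list, 1 site lay 36687 bp from Stab1 (chr14:32018514-32019640) and 1 lay 57128 bp from Tie1 (chr4:118219794-118220089). The share of all genes with a site within 100 kb was 1.55% and 8.31%, so 1 and 2 of 35 members were near the background.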

How the data were processed

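Control, Sham and VSG livers, from 2 mice a group, were profiled by RNA-seq and FAIRE-seq, 12 samples in all. The authors estimated FPKM with Cufflinks per RefSeq transcript after TopHat2 alignment to mm9, without stated versions. The labels describe poly(A) enrichment and the methods rRNA depletion, so the library type is not settled. The authors gave each FAIRE peak an F-seq signal and kept peaks by IDR over the 2 mice. The deposited lists of variable sites hold no score or other value, only positions. The deposited comparison tables hold mean counts, fold changes and p-values of the authors' own tests and were not used.

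RefSeq identifiers were matched to symbols for 34046 of 34933 transcripts, and FPKM was summed per gene. Genes that reached 1 FPKM or more in 2 mice or more were fitted as log2(FPKM + 1) with limma 3.58.1 in R 4.3.3, over all 6 mice with a trend in the variance, and p-values were BH adjusted over 9869 genes at an FDR of 10%. The fit was tested on simulated data. The mice are separate livers, but 2 per group give a weak estimate of the spread. Promoters and start sites came from protein-coding transcripts of NCBIM37 (Gencode), read with pysam 0.24.0 under Python 3.11.15 (numpy 2.4.6, pandas 2.3.3, matplotlib 3.10.9).

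Members and lists were chosen with earlier results of these data known. Named genes are the 4 markers and members or pathway genes whose groups were apart by at least 2-fold, and the others are named by role. Alternatives covered the pseudocount, filter, scaling, variance model, pairing, transcript choice, left-out mice and peak settings.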

Additional observations from a re-analysis of the deposited data

How the results depend on the processing

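No member passed an FDR of 10% under any alternative, and the smallest adjusted p over members ranged over settings from 0.116 to 0.484 for Sham against Control, 0.111 to 0.870 for VSG against Sham and 0.227 to 0.660 for VSG against Control. The median changes have no test. From Control to Sham they were -1.41 (sinusoidal) and -1.58 (general) at a pseudocount of 0.1, -1.11 (general) at 0.5 and -0.58 (general) without the filter. From Sham to VSG they were 1.21 and 1.26 at 0.1 and 0.98 (general) at 0.5. With 1 mouse left out, Sham against Control ran from -1.24 to -0.52 (sinusoidal) and -1.06 to -0.58 (general), VSG against Sham from 0.65 to 1.003 and 0.55 to 0.91, and VSG against Control from -0.37 to 0.29 and -0.48 to -0.084. The sinusoidal median of VSG against Control changed sign without the second Control mouse, at -0.37, and the sinusoidal Sham median was -0.52 without the first Control mouse.

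Leaving out 1 mouse, chosen after seeing the data, gave 32 to 34 of 35 members with a lower Sham than Control mean and 28 to 34 with a higher VSG than Sham mean. The VSG minus Sham difference of Egfl7 was -0.25 on its highest transcript only. With the 50% of peaks with the highest signal, members with a promoter peak numbered 3 in Control, 3 in Sham and 4 in VSG. Members near variable sites, 3 within 100 kb, numbered 0 within 10 kb and 10 within 500 kb. Of 530 refits of single members, 1, that of Egfl7, changed direction; since no member was called, this says nothing about calls.

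Deviations of mice with the same replicate number correlated at 0.118 for Control and Sham, 0.039 for Sham and VSG and 0.0643 for Control and VSG, so the numbers were not taken to pair the mice. With the replicate block, 0 members were called and the medians of Sham against Control stayed at -0.96 and -0.82. Precision is limited by 2 mice a group and an unknown read depth.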
